A study of Mus musculus with 6 samples.

Results

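Genes that mark immune cells, blood vessel endothelium and stroma were examined in RNA from 6 LAPC-4 xenograft tumors, and 1 of them, CDH5, was lower in tumors of mice fed the LoGI diet. The markers were 9 genes chosen by human Ensembl identifier, by a rule that holds no measured value but was written with earlier results of these data known, out of 60649 genes in the count table. They were PTPRC (ENSG00000081237), CD68 (ENSG00000129226) and LYZ (ENSG00000090382) for immune cells, PECAM1 (ENSG00000261371), VWF (ENSG00000110799) and CDH5 (ENSG00000179776) for endothelium, and PDGFRA (ENSG00000134853), PDGFRB (ENSG00000113721) and ACTA2 (ENSG00000107796) for stroma. Each identifier was found in the table, and each gene had at least 1 read.

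LAPC-4 is a human prostate cancer line with a wild-type androgen receptor, and all tumors came from this line, injected with Matrigel into the flank of male CB.17 scid/scid mice that were 6 to 8 weeks old when purchased. All mice ate the HiGI diet from day 1, received the cells on day 14, and were randomized to a HiGI or a LoGI Western diet when tumors averaged 200 mm3. Starch rich in amylose and maltodextrin replaced the sucrose of the HiGI diet in the LoGI diet, and tumors were taken at 800 mm3. RNA came from 3 HiGI tumors (16, 20 and 26) and 3 LoGI tumors (19, 27 and 28), each from a different mouse and counted in a library of its own. In such a model the tumor cells are human, whereas vessels, stroma and immune cells come from the mouse, and scid mice lack mature B and T cells.

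The markers have well-known roles. PTPRC encodes CD45, a phosphatase on the surface of nearly all blood cells except red cells and platelets, CD68 is a lysosomal membrane glycoprotein abundant in macrophages, and LYZ encodes lysozyme, an antibacterial enzyme made by macrophages, neutrophils and several secretory epithelia. PECAM1 (CD31) and CDH5 (VE-cadherin) join endothelial cells to each other, while VWF is secreted by endothelium and binds platelets. PDGFRA and PDGFRB are receptor tyrosine kinases for platelet-derived growth factors, the first typical of fibroblasts and the second of pericytes and fibroblasts, and ACTA2 is the actin of smooth muscle and activated fibroblasts.

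Library totals lay between 18749813 and 21550812 reads on genes. A level of 3 reads, taken here as the smallest that the depth could show, corresponded to 0.139 to 0.160 CPM, that is, reads per 1000000 reads of the library. Intervals on reads cover counting error only. On the first principal component of all tested genes (51.3% of the variance) the diets did not overlap, and on the second (14.7%) HiGI tumor 26 lay apart from HiGI tumors 16 and 20, so that each comparison was also made with every tumor left out in turn.

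All 9 markers together took 1511 reads in the 6 libraries. Scaled to the library totals, this was 12.0 to 15.4 CPM in HiGI tumors and 11.2 to 11.6 in LoGI tumors. VWF alone supplied 1012 of these reads, or 67.0%, so that most of the sum came from 1 gene. The endothelial markers summed to 8.75 to 11.3 CPM in HiGI and 7.25 to 8.49 in LoGI tumors, and 92.3% of those reads were on VWF. These sums did not overlap, whereas VWF alone did, at 7.05 to 10.4 CPM in HiGI and 7.15 to 8.12 in LoGI tumors. The nearest sums were 8.75 CPM in HiGI tumor 20 and 8.49 in LoGI tumor 27. Their counting intervals, 7.5 to 10.2 and 7.31 to 9.81 CPM, overlapped. VWF was lower in HiGI tumor 20 than in LoGI tumor 27, at 7.05 and 8.12 CPM, whereas CDH5 was higher, at 1.5 and 0.278. The separation of the sums thus largely restates the CDH5 reads. The stromal markers summed to 2.40 to 3.37 and 2.08 to 2.89 CPM, with overlap between diets. The immune markers were the smallest group, at 0.200 to 0.712 and 0.418 to 1.47 CPM. Gene lengths were not used here, so that reads of different genes do not rank their levels. Because the tumors are bulk samples, fewer cells of a type, less RNA per cell and altered expression by the tumor cells themselves cannot be told apart. The authors removed reads unique to mouse before counting, so that these reads do not measure how many host cells a tumor held. Whether a given read came from human or mouse RNA was not tested.

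**Figure D1:**
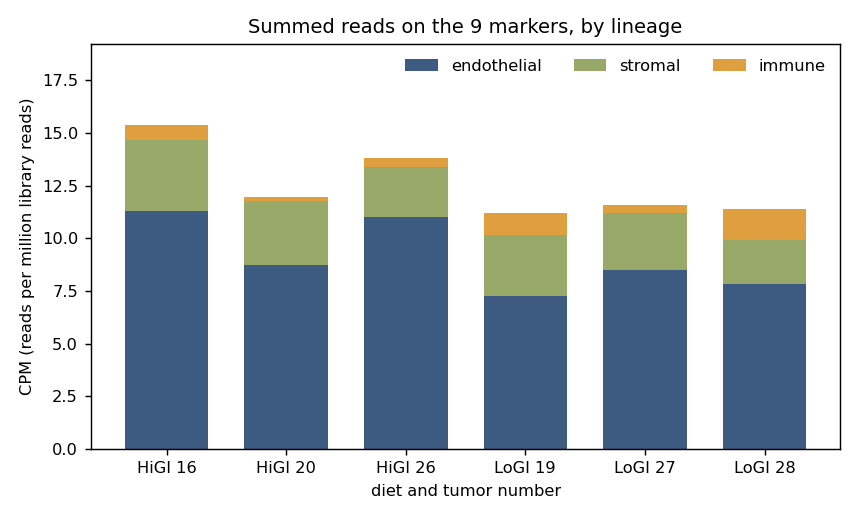
Reads on the 9 markers in CPM (vertical axis) in each tumor (horizontal axis), stacked by lineage without error bars. Every bar reaches between 11.2 and 15.4 and is mostly endothelial, and the immune part is the smallest in all 6 tumors.

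Between diets, 7 of the 9 markers had at least 10 reads over the 6 tumors and were tested within the whole table of 24545 genes. In the table as a whole 3.45% of genes passed the study's threshold, which asks for an adjusted p under 0.05 (here by edgeR's quasi-likelihood test) and a log2 fold change of 1 or more in either direction, 3.38% as lower and 0.0733% as higher in LoGI tumors. Among the 7 markers 1 was lower and 0 were higher, and 2 had an unadjusted p under 0.05, CDH5 and LYZ. DESeq2's Wald test also called 1 lower and 0 higher, with 2 at an unadjusted p under 0.05. The log2 fold change of LoGI over HiGI was negative for 5 and positive for 2 of them, with a median of -0.40, against 0.0034 for all tested genes. With 7 genes tested, 1 call says little about the group beside that background. The normalized counts of the diets were without overlap for 1 of the 7, CDH5, and for 18.5% of all tested genes.

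CDH5 was the marker that fell. HiGI tumors 16, 20 and 26 carried 20, 30 and 16 CDH5 reads, and LoGI tumors 19, 27 and 28 carried 1, 6 and 2. The highest LoGI tumor, 27, stayed below the lowest HiGI tumor, 26, although their counting intervals, 2.20 to 13.1 and 9.15 to 26 reads, overlapped. Scaled to a common library size by TMM, the normalized count was 21.7 ± 7.05 (SD, n = 3) in HiGI and 2.92 ± 2.39 (SD, n = 3) in LoGI tumors. The log2 fold change was -2.80, or 6.99-fold lower in LoGI, with a Benjamini-Hochberg adjusted p of 0.00365 in edgeR's quasi-likelihood test. DESeq2 gave -2.86 with a standard error of 0.72, a 95% interval from -4.27 to -1.45 and an adjusted p of 0.00239.

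The fall of CDH5 was not among the largest of the genes called lower in LoGI tumors. In all, 661 of the 24545 genes had a smaller p, and of the 829 genes lower in LoGI tumors 470, or 56.7%, had a larger decrease. Among the 2255 tested genes with 50 to 100 reads in total, the range that holds CDH5 with its 75 reads, 132 genes (5.85%) passed the threshold, 127 of them lower in LoGI tumors. CDH5 kept its call with each tumor left out in turn, with log2 fold changes from -3.68 without LoGI tumor 27 to -2.43 without LoGI tumor 19. Its adjusted p in those edgeR fits reached 0.0336 at most, without HiGI tumor 20, the tumor with the most CDH5 reads.

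VWF, the marker with the most reads, did not pass the threshold. HiGI tumors 16, 20 and 26 carried 218, 141 and 189 VWF reads, and LoGI tumors 19, 27 and 28 carried 136, 175 and 153. HiGI tumor 20 lay within the LoGI range, so that the diets overlapped. The normalized count was 180.5 ± 34.8 (SD, n = 3) in HiGI and 155.6 ± 11.4 (SD, n = 3) in LoGI tumors, with a log2 fold change of -0.21 and an adjusted p of 0.695 in edgeR's quasi-likelihood test. The DESeq2 interval of the difference, -0.58 to 0.17, lay inside a log2 change of 1 in either direction. A partial pseudogene copy of VWF exists in the human genome, and how reads were divided between the 2 copies was not tested.

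PECAM1, the third endothelial marker, was at the limit of detection. HiGI tumors 16, 20 and 26 carried 0, 4 and 2 PECAM1 reads, and LoGI tumors 19, 27 and 28 carried 1, 2 and 0. With 9 reads in all it was not tested under the filter of 10 reads. The diets overlapped, and a difference was not detectable at this depth. When every gene with at least 1 read was tested instead, its log2 fold change was -0.92 with an adjusted p of 0.803 in edgeR's quasi-likelihood test.

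Set side by side within a tumor, where library scaling cancels, there were 9.17, 21.3 and 8.47 CDH5 reads per 100 VWF reads in HiGI tumors 16, 20 and 26 and 0.735, 3.43 and 1.31 in LoGI tumors 19, 27 and 28. The ratio averaged 13 ± 7.20 (SD, n = 3) in HiGI and 1.82 ± 1.42 (SD, n = 3) in LoGI tumors. The ratio was chosen after the values were seen and largely restates the CDH5 reads, so that it is given as a description, and whether CDH5 differed from VWF or PECAM1 in its response was not tested. HiGI tumor 20 had the most reads on CDH5 and PECAM1 among HiGI tumors and the fewest on VWF.

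**Figure D2:**
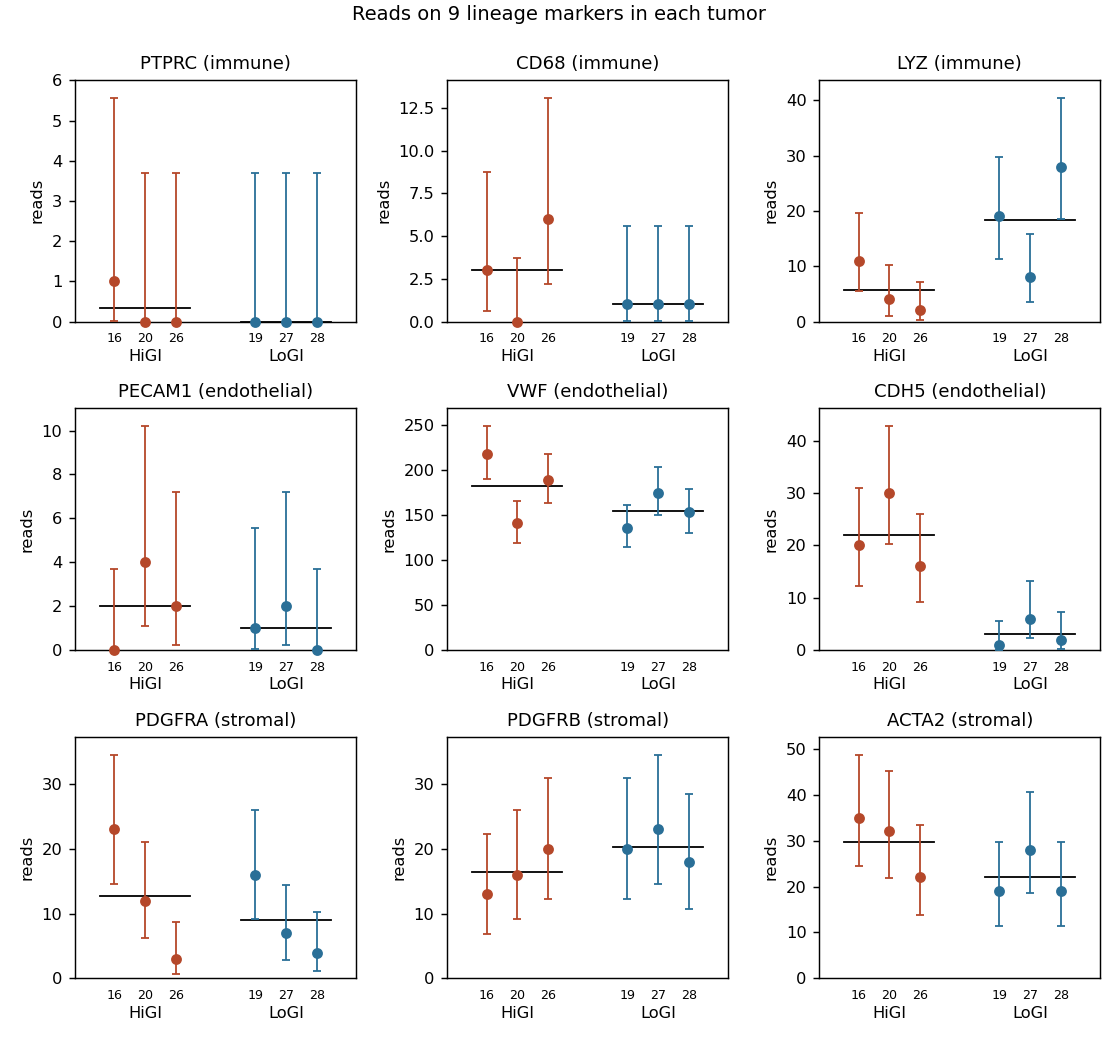
Reads per library (vertical axes, each from 0 with its own range) on each marker in HiGI tumors 16, 20 and 26 (red) and LoGI tumors 19, 27 and 28 (blue). Bars are exact 95% Poisson intervals of the single counts and black lines are means of 3 tumors. CDH5 lies at 16 to 30 reads in HiGI and 1 to 6 reads in LoGI tumors, and it is the panel among the 7 tested markers with no overlap between diets.

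Reads on immune markers were few in all tumors. Since reads unique to mouse had been removed, these counts do not measure the immune cells of the host. PTPRC had 1 read in HiGI tumor 16 and 0 reads in each of the other 5 tumors, and a count of 0 allows up to 3 reads (a one-sided 95% limit), or 0.160 CPM in the smallest library. The two-sided interval drawn in the plot of reads by tumor reaches 3.69 reads. This single read allows no comparison between diets. HiGI tumors 16, 20 and 26 carried 3, 0 and 6 CD68 reads, and each LoGI tumor carried 1. HiGI tumor 20 was below every LoGI tumor and HiGI tumors 16 and 26 were above, so that the diets overlapped. The CD68 log2 fold change of -1.46 had an adjusted p of 0.671 in edgeR's quasi-likelihood test, and the DESeq2 interval ran from -4.61 to 1.46. No difference was detected at this depth, and the interval allows one in either direction.

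LYZ was the immune marker with the most reads, and its log2 fold change was positive. HiGI tumors 16, 20 and 26 carried 11, 4 and 2 LYZ reads, and LoGI tumors 19, 27 and 28 carried 19, 8 and 28. LoGI tumors 19 and 28 were above all HiGI tumors, whereas LoGI tumor 27 lay below HiGI tumor 16. The normalized count was 5.40 ± 4.18 (SD, n = 3) in HiGI and 18.9 ± 10.99 (SD, n = 3) in LoGI tumors. The log2 fold change was 1.74 with an unadjusted p of 0.00939 and an adjusted p of 0.138 in edgeR's quasi-likelihood test, so that LYZ did not pass the threshold. The DESeq2 interval ran from 0.42 to 3.16, with an adjusted p of 0.163.

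The LYZ result rested on single tumors and on which genes were tested. Without HiGI tumor 16 its log2 fold change was 2.56 (adjusted p = 0.0473 in edgeR's quasi-likelihood test) and without LoGI tumor 27 it was 2.14 (adjusted p = 0.0439 in that test), past the threshold in both cases. Without LoGI tumor 28, the tumor with the most LYZ reads, it was 1.27 (adjusted p = 0.404 in that test). With every gene of at least 1 read in the fit it was again past the threshold, with a log2 fold change of 1.74 and an adjusted p of 0.00875 in that test. In LoGI tumor 28, which had 28 reads on LYZ, CD68 had 1 read and PTPRC had 0 reads. In HiGI tumor 16, which had 11 reads on LYZ, CD68 had 3 reads and PTPRC its 1 read.

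**Figure D3:**
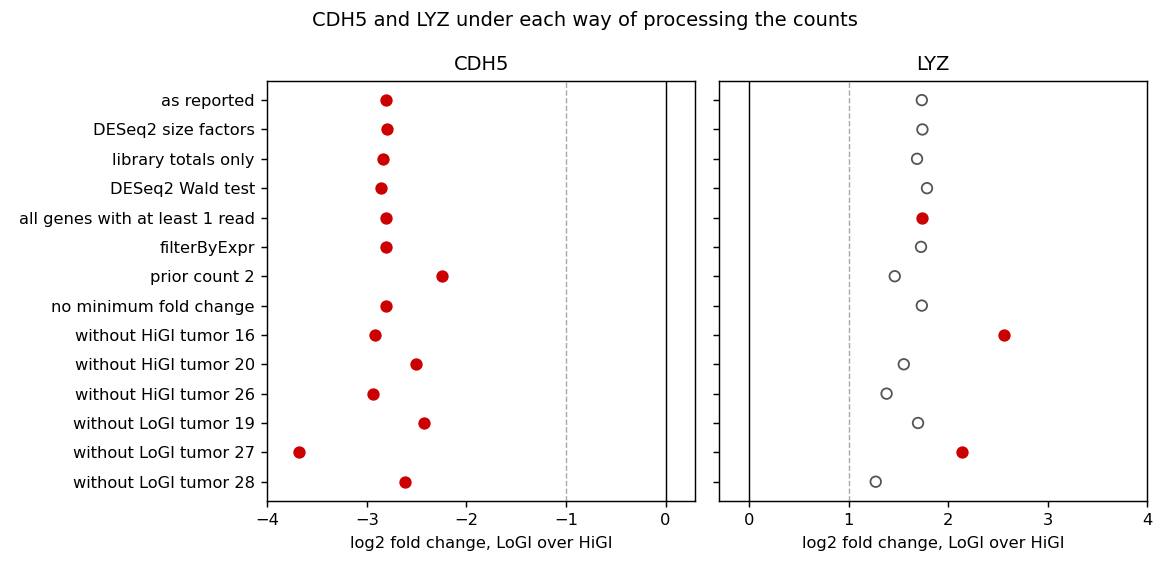
Log2 fold change of LoGI over HiGI (horizontal axes) for CDH5 and LYZ under each way of processing the counts (rows), with filled red points where the result passed the threshold and open points where it did not. The solid line is no difference and the dashed line a log2 fold change of 1 in size. CDH5 passes in every row, from -3.68 to -2.25, and LYZ passes in 3 of its alternatives.

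Stromal markers gave values that overlapped between diets. HiGI tumors 16, 20 and 26 carried 23, 12 and 3 PDGFRA reads, and LoGI tumors 19, 27 and 28 carried 16, 7 and 4. Tumors of the same diet thus differed by more than the diets did, and the variance of the normalized counts within a diet was 6.66 times the mean in HiGI and 4.87 times the mean in LoGI tumors, where counting error alone gives a value near 1. Such spread was not limited to PDGFRA. The same ratio was 6.72 in HiGI and 0.838 in LoGI tumors for VWF, and 3.23 and 6.38 for LYZ. The PDGFRA log2 fold change of -0.43 had an adjusted p of 0.864 in edgeR's quasi-likelihood test and a DESeq2 interval from -1.83 to 1.02. Without HiGI tumor 16 the sign turned, to 0.25.

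PDGFRB had a smaller SD between replicate tumors in both diets. Normalized counts averaged 16.4 ± 4.67 (SD, n = 3) in HiGI and 20.5 ± 1.38 (SD, n = 3) in LoGI tumors, against 12.1 ± 8.97 and 9.17 ± 6.69 for PDGFRA. In HiGI tumors 16, 20 and 26 it had 13, 16 and 20 reads, in LoGI tumors 19, 27 and 28 it had 20, 23 and 18, and the ranges overlapped. The log2 fold change was 0.33, with an adjusted p of 0.782 in edgeR's quasi-likelihood test and a DESeq2 interval from -0.59 to 1.26. The 2 receptors differed in how the tumors were ordered, with 177, 75 and 15 PDGFRA reads per 100 PDGFRB reads in HiGI tumors 16, 20 and 26 and 80, 30.4 and 22.2 in LoGI tumors 19, 27 and 28. This ratio was also chosen after the values were seen and is a description.

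For ACTA2, HiGI tumors 16, 20 and 26 carried 35, 32 and 22 reads, and LoGI tumors 19, 27 and 28 carried 19, 28 and 19. LoGI tumor 27 lay between HiGI tumors 26 and 20, and the other LoGI tumors were below all HiGI tumors. The normalized count was 29.1 ± 4.98 (SD, n = 3) in HiGI and 22.02 ± 3.62 (SD, n = 3) in LoGI tumors. The log2 fold change was -0.40 with an adjusted p of 0.653 in edgeR's quasi-likelihood test and a DESeq2 interval from -1.19 to 0.39. Its spread within a diet was near that of counting error, with a variance of 0.850 times the mean in HiGI and 0.593 times the mean in LoGI tumors. ACTA2 shares most of its coding sequence with the other actins, so that its reads could have been divided among them, which was not tested.

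**Figure D4:**
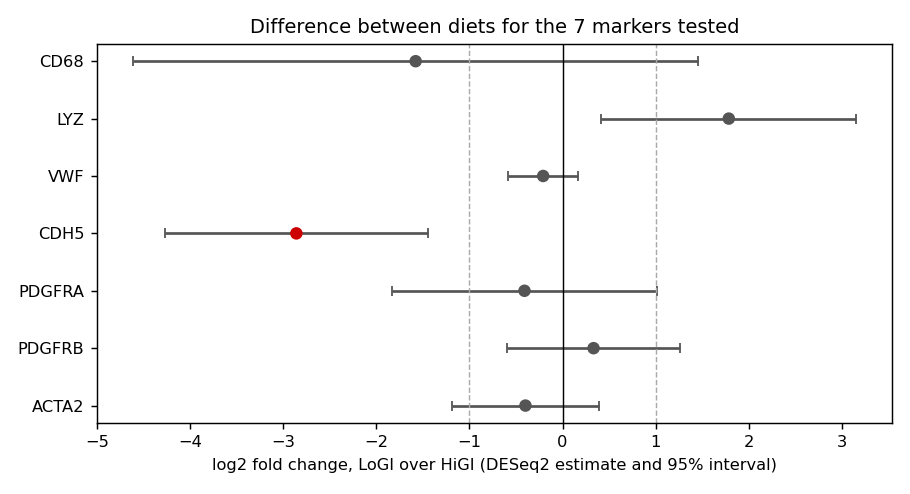
Log2 fold change of LoGI over HiGI (horizontal axis) of the 7 markers tested, as DESeq2 estimates with 95% intervals from 3 tumors per diet. The dashed lines mark a log2 fold change of 1 in size and the red point is the marker past the threshold, CDH5, with an interval from -4.27 to -1.45, whereas the VWF interval lies inside the dashed lines.

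Likeness to other genes was examined for VWF, the 1 marker with at least 20 reads in every tumor. Among 17721 genes kept by filterByExpr, the 2 whose log2 CPM followed VWF most closely over the 6 tumors were ENSG00000037757.14, with a Pearson r of 0.988 and a Spearman rho of 0.943, and ENSG00000146083.12, with an r of 0.986 and a rho of 0.886. They are the maxima of many comparisons over 6 points, are given as a description, and are not named here because the table does not pair identifiers with symbols.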

How the data were processed

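RNA from 6 tumors, 3 per diet, was sequenced by the authors as stranded single-end reads of 75 bp. The authors mapped reads with BBMap to the human (GENCODE release 38, GRCh38.p13) and mouse (GRCm38.p6) genomes, removed those unique to mouse, which leaves reads that match both, and aligned the rest to human with STAR and RSEM. They deposited counts per human gene as whole numbers, not normalized. How estimates became whole, and whether counting used strand, are not given in the sources used here.

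Counts were compared with edgeR 4.0.16 in R 4.3.3 (TMM, glmQLFit, glmQLFTest, Benjamini-Hochberg) over all genes whose reads summed to 10 or more. The study names edgeR and the threshold used here, but neither a test nor a filter. Normalized counts are reads divided by TMM-scaled library size, times the geometric mean of those sizes. Fold changes used a prior count of 0.125, and standard errors and 95% intervals came from DESeq2 1.42.0. The test was tried on simulated data with known changes, in which every gene was given the same spread setting between tumors. Those changes were placed only in genes with more reads than every marker except VWF, so that counts as low as the others were not covered. The labels give no batch.

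All 9 markers are named, and for each with at least 20 reads in every tumor the 2 genes kept by filterByExpr with the highest Pearson r of log2 CPM (prior count 2). Markers and lists were chosen with earlier results of these data known. Symbols came with the list of identifiers and were not checked, since no table used here pairs human identifiers with symbols. Further lists of marker, ligand, actin and lysosome genes, written by symbol, were therefore not looked up, and human coordinates, lengths and sequences were not used here. Alternatives were DESeq2 size factors, library totals only, the DESeq2 Wald test (independent and Cook's filters off), all genes with at least 1 read, filterByExpr, a prior count of 2, any fold change, and each tumor left out.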

Additional observations from a re-analysis of the deposited data

How the results depend on the processing

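CDH5 was called lower in LoGI tumors under all 13 alternatives, with log2 fold changes from -3.68 to -2.25 and adjusted p up to 0.0336 (edgeR's quasi-likelihood test or the DESeq2 Wald test). Allowing any fold change reuses the reported fit and could not remove its call. A prior count of 2 altered the fold change alone and left the adjusted p at 0.00365 in edgeR's quasi-likelihood test. No other marker was called lower. Over the whole table, between 678 of 17722 genes (filterByExpr) and 1071 of 24545 (any fold change) were called lower in these fits. The number of markers called higher, 0 as reported, became 1 (LYZ) when all genes with at least 1 read were tested, and 0 to 1 when a single tumor was left out (1 without HiGI tumor 16 or LoGI tumor 27). Over the whole table, 39 of 36617 genes were called higher with at least 1 read. Without HiGI tumor 16 the count was 23 of 23664, and without LoGI tumor 27 it was 19 of 23834. PDGFRA reversed to 0.25 without HiGI tumor 16 and was between -1.16 and 0.25 over all such fits, and no other direction turned where a marker was tested. Between 6 and 9 markers were tested, depending on the filter and the tumors kept. The causes were not tested. Mean normalized counts changed by at most 1.03 times under the other scalings. With a tumor left out, 8 means moved by over 1.5 times, among them CDH5 in LoGI tumors from 2.92 to 1.57 without LoGI tumor 27, LYZ in HiGI tumors from 5.40 to 3.05 without HiGI tumor 16, and CD68 in HiGI tumors from 3.04 to 1.38 without HiGI tumor 26. The others belonged to PTPRC, PECAM1 and PDGFRA. At this depth PTPRC and PECAM1 could show no difference between diets, and none was detected for CD68, whose interval allows one in either direction. No paired analysis was possible because the labels share no replicate numbers between diets. Alternatives for the further gene lists were not run.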
